A study of Mus musculus with 12 samples.

Results

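The Nrf2 antioxidant response was followed through 10 genes: the transcription factor Nrf2 (gene Nfe2l2), its inhibitor Keap1, the classical Nrf2 targets Hmox1, Nqo1, Gclc, Gclm and Txnrd1, the superoxide dismutases Sod1 and Sod2, and catalase (Cat). They were chosen by symbol, and each was represented by 1 line of the deposited array table, so that 10 of the 24570 named genes are described here. Whole retinas were compared between 6 diabetic mice, which had received streptozotocin (STZ), and 6 normoglycemic mice without STZ, with 1 array per animal. All animals carried the strain label C57Bl6/J. Per the labels' protocols they were male and, despite the strain, outbred, and diabetes was induced with 160 mg/kg STZ into the peritoneum at 8 weeks of age and 24 to 26 g, with a blood glucose above 15 mM found 7 days later. STZ destroys the insulin-producing cells of the pancreas. The sample descriptions place the retinas at 6 weeks after induction, but the design text of the series gives 6 weeks as the age of the diabetic mice, which is below the age at injection, so that the age at collection is not settled here.

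Nrf2 is held in the cytoplasm by Keap1, which hands it to a cullin ubiquitin ligase for destruction. Oxidants and electrophiles modify Keap1, Nrf2 then enters the nucleus, pairs with a small Maf protein and binds antioxidant response elements in front of genes for glutathione synthesis, thioredoxin reduction, quinone reduction and haem breakdown. Oxidative stress is a long-standing theme of diabetic retinopathy, and in the retina the pathway is known for its activity in Mueller glia and in the pigment epithelium next to the retina.

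The core of the antioxidant response element, TGACNNNGC, where N is any base, was looked up on both strands in the promoters that RefSeq gives for mouse build GRCm38.p6, from 250 bases before to 50 bases after each start. A promoter was matched for 8 of the 10 genes, all but Hmox1 and Gclc. Of these 8 genes, 4 held the core (50%), whereas 15.0% of the 18335 genes of the array table with such a promoter, and 12.4% of all 32851 promoters, held it. The 4 matches are printed because this element is the sequence through which the pathway acts. Each is given 5′ to 3′ in the direction of the core, with the core in capitals and 10 bases on either side.
Nfe2l2: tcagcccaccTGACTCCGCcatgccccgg
Gclm: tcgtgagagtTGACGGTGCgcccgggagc
Txnrd1: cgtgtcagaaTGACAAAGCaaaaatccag
Sod1: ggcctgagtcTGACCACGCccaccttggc
The Nfe2l2 stretch lies at chr2:75704885-75704913 on the minus strand, with the core starting 240 bases before the start of the gene. The Gclm stretch lies at chr3:122245413-122245441 on the minus strand, with its core 134 bases before the start. The Txnrd1 stretch lies at chr10:82859104-82859132 on the minus strand, 92 bases before 1 of the 3 starts listed for that gene, and the Sod1 stretch at chr16:90220696-90220724 on the minus strand, 56 bases before the start. Distances are counted to the end of the core that is farther from the start. All 4 stretches lie before the start they belong to. No match was found in the windows of Keap1, Nqo1, Sod2 and Cat, which says only that these letters are not in those windows. The match is a description of the letters and not of bound Nrf2.

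The tissue label was checked against marker lists of retinal cell types. The lists for rods, Mueller glia and bipolar cells had mean log2 values of 12.76, 10.28 and 10.45 in diabetic retinas, against 12.77, 10.28 and 10.46 in controls. Of 8 marker lists, 0 passed the test between the groups (exact permutation test, two-sided, smallest adjusted p = 0.857, and 0 with an unadjusted p under 0.05). The mean of the lens markers ranged from 5.86 to 7.73 in diabetic and from 6.02 to 6.84 in control retinas, with a difference of 0.29 between the group means. That of the pigment epithelium markers ranged from 7.00 to 8.51 in diabetic and from 7.07 to 8.01 in control retinas, and both means were highest in diabetic 6. The 4 red blood cell markers measured were all below the array median of 5.73 in controls. Whole retina mixes many cell types, so fewer cells of a type and less RNA per cell cannot be told apart.

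None of the 10 genes passed the test between diabetic and control retinas (limma with Benjamini-Hochberg adjustment over all 24570 genes, threshold 0.05), where 3.24% of all genes passed, 1.47% higher and 1.77% lower in diabetic retinas. At an unadjusted p under 0.05 there were 2 of the 10, Nqo1 and Gclc, both with a change above 0. This share of 20% was close to the 21.0% of all genes that reached it, 9.76% higher and 11.3% lower in diabetic retinas. The changes, diabetic minus control, ranged from -0.10 to 0.13 on the log2 scale. Of the 10, 7 lay above 0, where 48.1% of all genes did, with a median of 0.03 beside -0.0018 for all genes. Both groups overlapped for each of the 10 genes, whereas they did not overlap for 2.84% of all genes.

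**Figure D1:**
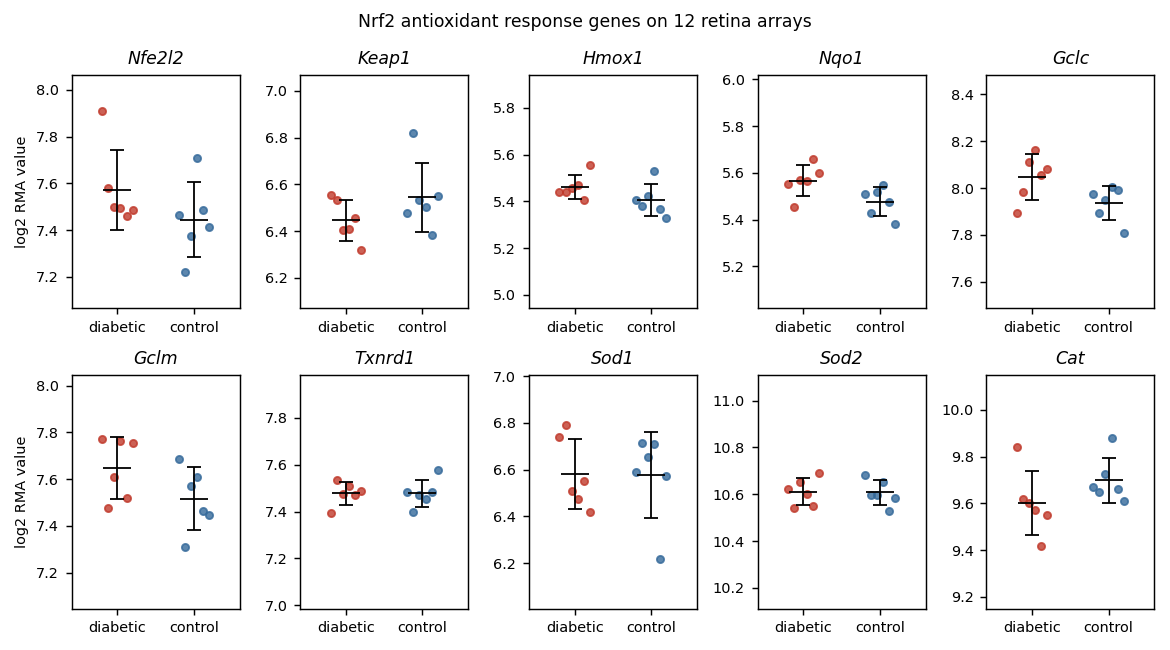
Log2 RMA value (vertical axis, each panel spanning 1 log2 unit) of the 10 genes in 6 diabetic retinas (red, left) and 6 control retinas (blue, right), 1 point per array, with mean and SD in black. The groups overlap in every panel, and single arrays stand apart for Nfe2l2 (diabetic 1 at 7.91) and Sod1 (control 5 at 6.22).

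Nfe2l2, which encodes the transcription factor itself, had a lowest value of 7.46, a median of 7.50 and a highest value of 7.91 in diabetic retinas, against 7.22, 7.44 and 7.71 in control retinas. Diabetic 1 lay far above the other diabetic retinas, which spanned 7.46 to 7.58, while control 4 was the highest control. All 6 diabetic values lay above the control mean, but only diabetic 1 lay above every control. The change was 0.13 ± 0.09 (SE, n = 6 per group, adjusted p = 0.453), with a 95% interval from -0.07 to 0.32. It was 0.06 without diabetic 1 and 0.08 without control 2, whose Nfe2l2 was the lowest.

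Keap1, the inhibitor, had 6.32, 6.43 and 6.55 as lowest, median and highest log2 value in diabetic retinas, against 6.38, 6.52 and 6.82 in controls. The highest value was that of control 2, and 5 of the 6 diabetic retinas lay below the control mean. The change was -0.10 ± 0.06 (adjusted p = 0.421), with an interval from -0.24 to 0.04. It was -0.04 without control 2, and -0.02 without control 2 and diabetic 6, the arrays that fitted the whole table least well.

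Both subunits of glutamate-cysteine ligase, the first and limiting enzyme of glutathione synthesis, had means above those of controls. The catalytic subunit gene Gclc had 7.89, 8.07 and 8.16 in diabetic retinas, against 7.81, 7.96 and 8.00 in controls, so that 4 of 6 diabetic retinas lay above the highest control. Its change was 0.11 ± 0.05, or 1.08-fold with an interval from 1.01 to 1.16 (unadjusted p = 0.0362, adjusted p = 0.202). Diabetic 1, the retina with the highest Nfe2l2, had the lowest Gclc of its group. The modifier subunit gene Gclm had 7.48, 7.68 and 7.77 in diabetic retinas, against 7.31, 7.52 and 7.69 in controls. Its change was 0.13 ± 0.07 (adjusted p = 0.315), with an interval from -0.02 to 0.29, and 3 diabetic retinas lay above every control. Without control 2 and diabetic 6 the change of Gclm was 0.07.

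Nqo1, a quinone reductase that is often used as a gauge of Nrf2 activity, had 5.45, 5.57 and 5.66 in diabetic retinas, against 5.38, 5.49 and 5.55 in controls. Diabetic 2 was the low one, and the other 5 diabetic retinas lay above every control. The change was 0.09 ± 0.04, 1.06-fold with an interval from 1.01 to 1.12 (unadjusted p = 0.0258, adjusted p = 0.171). Hmox1, the inducible haem oxygenase, had 5.41, 5.45 and 5.56 in diabetic retinas, against 5.33, 5.39 and 5.53 in controls, and its change was 0.05 ± 0.03 (adjusted p = 0.383), from 0.04 to 0.08 with 1 array left out. The highest values of Hmox1 were those of diabetic 6 and control 4, the retinas with the highest pigment epithelium mean of their groups. The control means of Nqo1 (5.48) and Hmox1 (5.41) lay below the array median of 5.73, so that these changes rest on dim signals.

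Txnrd1, the cytosolic thioredoxin reductase, was nearly level, with 7.39, 7.48 and 7.53 in diabetic retinas and 7.40, 7.48 and 7.58 in controls. Its change was -0.0010 ± 0.03 (adjusted p = 0.991), with an interval from -0.07 to 0.06, or up to 1.05-fold. Its sign turned with cyclic loess normalization and with single arrays left out.

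**Figure D2:**
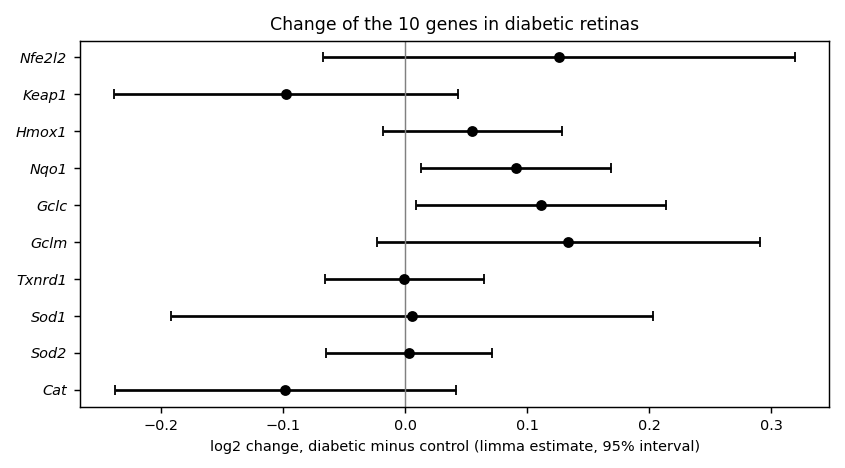
Log2 change, diabetic minus control (horizontal axis), of the 10 genes, with the limma estimate as a point and its 95% interval as a bar. The intervals of Nqo1 and Gclc lie above 0 before adjustment, and those of Txnrd1 and Sod2 are narrow around 0.

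Of the enzymes that remove superoxide, neither passed the test. Sod2, the mitochondrial manganese superoxide dismutase, had 10.54, 10.61 and 10.69 in diabetic retinas, against 10.53, 10.60 and 10.68 in controls. Its change was 0.0029 ± 0.03 (adjusted p = 0.972), and the interval from -0.07 to 0.07 was narrow. Sod1, the cytosolic copper-zinc enzyme, varied more, with 6.42, 6.53 and 6.79 in diabetic retinas and 6.22, 6.62 and 6.72 in controls. Control 5 was the low one, and the change of 0.0050 ± 0.09 (adjusted p = 0.984) came to -0.07 without it. The signs for Sod1 and Sod2 turned under other settings, Sod2 also with cyclic loess normalization.

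Cat, the peroxisomal enzyme that splits hydrogen peroxide, had 9.42, 9.59 and 9.84 in diabetic retinas, against 9.61, 9.67 and 9.88 in controls. Of the diabetic retinas, 4 lay below the lowest control, but diabetic 1 at 9.84 lay near the highest control, which was control 4. The change was -0.10 ± 0.06 (adjusted p = 0.413), with an interval from -0.24 to 0.04, and it was -0.15 without diabetic 1 and -0.06 without either control 4 or diabetic 5, the lowest array.

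How the 10 genes varied among themselves was followed through the values minus the mean of their own group, over all 12 arrays. Of the 45 pairs, 0 passed after adjustment (permutation test within groups, 100000 resamples, two-sided, smallest adjusted p = 0.224 for Pearson's r and 0.246 for Spearman's rho), and 5 had an unadjusted p under 0.05. The highest was Nfe2l2 with Cat (r = 0.85, permutation p = 0.00497, adjusted p = 0.224; rho = 0.65, permutation p = 0.0273, adjusted p = 0.246). It rested on control 4 and diabetic 1, without which r was 0.28. Gclm with Sod2 had r = 0.68 (permutation p = 0.0267, adjusted p = 0.345) and rho = 0.71 (permutation p = 0.0176, adjusted p = 0.246), and Keap1 with Sod1 had r = 0.74 (permutation p = 0.0300, adjusted p = 0.345) and rho = 0.72 (permutation p = 0.0115, adjusted p = 0.246). Gclm with Sod2 had r = 0.69 without control 2 and diabetic 2, and Keap1 with Sod1 had r = 0.76 without control 2 and control 5. Hmox1 with Sod2 had r = 0.64 (permutation p = 0.0306, adjusted p = 0.345) and rho = 0.67 (permutation p = 0.0227, adjusted p = 0.246), and r = 0.48 without control 4 and diabetic 6.

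Among the targets Hmox1, Nqo1, Gclc and Gclm, all 6 pairs had r above 0, from 0.29 to 0.57, and none had an unadjusted p under 0.05. The remaining target, Txnrd1, did not share this direction. Its r was -0.20 with Hmox1, -0.37 with Nqo1, -0.10 with Gclm and 0.06 with Gclc. Keap1 had r below 0 with all 5 targets, from -0.58 to -0.33. Keap1 with Gclc gave r = -0.58 (permutation p = 0.0467, adjusted p = 0.405) and rho = -0.71 (permutation p = 0.0131, adjusted p = 0.246), and r = -0.73 without control 2 and control 5. Nfe2l2 went with these 5 targets in no common direction, from r = -0.26 to 0.50. The arrays share their normalization and dissection. Within groups, the pigment epithelium mean also went with Gclm (r = 0.75, permutation p = 0.00810; rho = 0.73, permutation p = 0.0141) and with Hmox1 (r = 0.67, permutation p = 0.0141; rho = 0.54, permutation p = 0.0844), without diabetic 2 and diabetic 6 r = 0.73 and 0.55. It went against Keap1 (r = -0.57, permutation p = 0.0414; rho = -0.62, permutation p = 0.0413), with r = -0.45 without the same arrays. The lens mean went with Hmox1 (r = 0.63, permutation p = 0.0136; rho = 0.48, permutation p = 0.0964), with r = 0.65 without these arrays. The Mueller glia mean went with Sod2 (r = 0.66, permutation p = 0.0323), with r = 0.44 without diabetic 2 and diabetic 6. Txnrd1 went against the red blood cell mean (r = -0.68, permutation p = 0.0234), with r = -0.54 without control 4 and diabetic 1. Against the microglia and macrophage mean it had r = -0.64 (permutation p = 0.0325), and r = -0.68 without diabetic 2 and diabetic 3. In this order rho was 0.63, -0.70 and -0.51 (permutation p = 0.0421, 0.0185 and 0.107). On every array the red blood cell mean (5.26 to 5.32) and the microglia and macrophage mean (5.56 to 5.66) lay below the array median of 5.73. Both relations of Txnrd1 thus rest on dim marker signals. The 80 relations of the 10 genes with 8 marker lists were computed after the data were seen. Of these, the 7 given here had an unadjusted p under 0.05 for r, and 0 passed after adjustment (smallest adjusted p = 0.375, permutation test). Their part in the pair correlations was not tested. With the pigment epithelium mean as a covariate, the changes between groups were 0.13 for Gclm, 0.05 for Hmox1 and -0.10 for Keap1. These were close to those without it, but that mean differed by only 0.0080 between groups, so it could hardly move them. The closeness of these changes therefore does not test the part of the pigment epithelium. The SEs for Gclm, Hmox1 and Keap1 were 0.0498, 0.0268 and 0.0554, against 0.0718, 0.0336 and 0.0646 without this covariate. The pigment epithelium markers themselves were not level, and 0 passed the test. The changes were 0.54 for Dct, 0.15 for Tyrp1 and 0.03 for Rpe65, but -0.40 for Lrat, -0.19 for Rgr, -0.06 for Ttr and -0.01 for Best1. With the lens mean as a covariate, the change of Hmox1 was 0.0353 (adjusted p = 0.547), against 0.0549 without it.

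**Figure D3:**
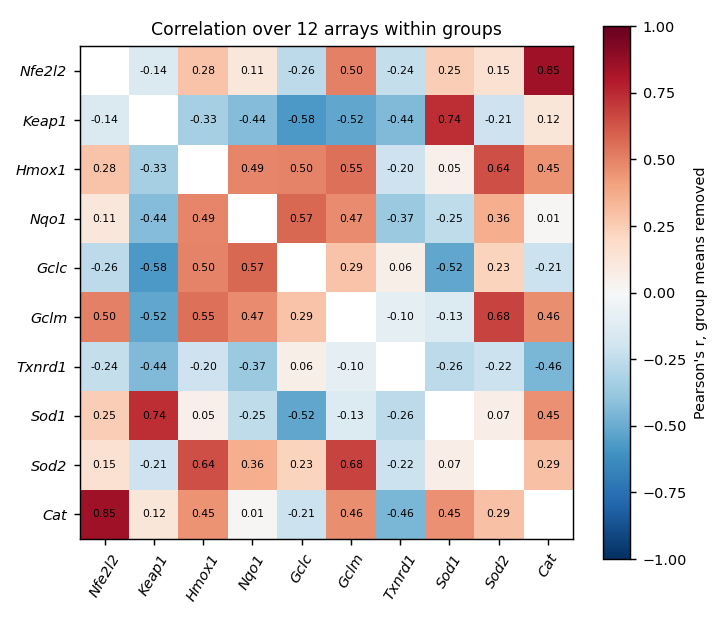
Pearson's r between the 10 genes over 12 arrays after removal of each group's mean, with red for positive and blue for negative values. The block of Hmox1, Nqo1, Gclc and Gclm is positive throughout, and the row of Keap1 is negative against it. The target Txnrd1 lies outside this block, with r from -0.37 to 0.06 against its genes. None of the 45 pairs passed after adjustment.

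For each gene, the most similar gene by Pearson's r of the same values was sought among the 12285 genes at or above the median level. These were Cerk for Nfe2l2 (r = 0.93), Rcc1 for Keap1 (0.93), Eola1 for Hmox1 (0.91), Ccdc171 for Nqo1 (0.90), Msra for Gclc (0.87), Sdc2 for Gclm (0.91), Ppp4r3b for Txnrd1 (0.89), Jak1 for Sod1 (0.92), Degs1 for Sod2 (0.93) and H2-K1 for Cat (0.95), each over 12 arrays. The median of such highest values over all 12285 genes was 0.918, so the size of these is ordinary.

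Around the 10 genes, 88 further genes in 5 lists were described: regulators and partners of Nrf2, other Nrf2 targets, superoxide and peroxide enzymes, sources of superoxide and nitric oxide, and genes of haem and iron handling. All 88 were measured, and 1 passed the test, lower in diabetic retinas, a smaller share than the 3.24% of all genes that passed. Of the 88, 26 had control means below the array median, where 12196 of all 24570 genes did, so a missing call for these rests on dim signals. At an unadjusted p under 0.05 there were 25 of 88 (28.4%), beside 21.0% of all genes, and the groups did not overlap for 3, beside 2.84% of all genes. The gene that passed was Glrx2, a glutaredoxin of mitochondria that reduces mixed disulfides of proteins with glutathione. Its log2 values were 8.15, 8.39 and 8.46 as lowest, median and highest in diabetic retinas, against 8.55, 8.61 and 8.78 in controls, so that the groups did not overlap. It fell by 0.28 ± 0.05 on the log2 scale (0.824-fold, limma adjusted p = 0.0200). The call held in each of the 12 runs that left out 1 array (adjusted p up to 0.0476) and in each of 13 other fits (up to 0.0452), at times just under the threshold of 0.05.

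In the list of 21 superoxide and peroxide enzymes, 8 had changes above 0 and 13 below, with a median of -0.0057, and 7 (33.3%) had an unadjusted p under 0.05, beside 21.0% of all genes. Prdx2, a cytosolic peroxiredoxin that is abundant in neurons and red blood cells, stood next to Glrx2. It had 8.86, 9.17 and 9.23 in diabetic retinas, against 9.23, 9.53 and 9.66 in controls. Its groups did not overlap, though the highest diabetic and the lowest control value were nearly equal, and its change of -0.35 ± 0.09 missed the threshold (adjusted p = 0.0524). It passed in 2 of the 12 runs with 1 array left out, without control 4 (adjusted p = 0.0305) or control 5 (0.0411), and in 5 of the 13 other fits. The haemoglobin genes Hbb-bs and Hbb-bt, markers of red blood cells, had means of 5.13 and 5.17 in diabetic retinas and of 5.12 and 5.18 in controls. These values lie near the bottom of the table at 5.07, so they cannot show how much blood the retinas held. The part of red blood cells in the value of Prdx2 was not tested.

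Of the 14 regulators and partners, 8 had changes above 0 and 6 below (median 0.04), with 0 past the test and 3 at an unadjusted p under 0.05 (21.4%, beside 21.0% of all genes). Crebbp, a coactivator that acetylates Nrf2, had 10.90 as its lowest and 11.09 as its highest value in diabetic retinas, against 10.73 and 11.02 in controls, and a change of 0.15 ± 0.05 (adjusted p = 0.0866). It passed in 1 of the 12 runs with 1 array left out, without control 5, the highest control (adjusted p = 0.0272). In the 13 other fits it passed in 0 (adjusted p up to 0.189). All 6 diabetic retinas lay above the control mean. Gsk3b, a kinase that marks Nrf2 for a route of degradation apart from Keap1, had 11.33, 11.45 and 11.50, against 11.45, 11.49 and 11.58 in controls, and a change of -0.09 ± 0.03 (adjusted p = 0.153). All 6 diabetic retinas lay below the control mean. Of the 12 genes in this list with a promoter, 3 held the core TGACNNNGC (25%, beside 15.0% of all genes with a promoter). These were Mafg, Maff and Mafk, the small Maf partners of Nrf2. Their changes were 0.10, -0.02 and -0.01 (adjusted p = 0.259, 0.619 and 0.817). These 3 genes were singled out after their values were seen.

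The 26 other Nrf2 targets were evenly divided, with 13 above and 13 below 0 and a median of 0.01. Of their control means, 7 lay below the array median. At an unadjusted p under 0.05 there were 7 (26.9%, beside 21.0% of all genes), of which 5 were below 0, where 11.3% of all genes were lower at that p, and 0 passed. Gstp1, a glutathione transferase, had 10.27, 10.36 and 10.53 in diabetic retinas, against 10.43, 10.57 and 10.61 in controls, and a change of -0.17 ± 0.05 (adjusted p = 0.0815). All 6 diabetic retinas lay below the control mean. Cbr1, a carbonyl reductase, had 7.02, 7.06 and 7.17 in diabetic retinas, against 6.99, 7.29 and 7.36 in controls, and a change of -0.17 ± 0.06 (adjusted p = 0.126). Cbr1 passed in 1 of the 12 runs with 1 array left out, without control 5, the lowest control (-0.22, adjusted p = 0.0170). In the 13 other fits Cbr1 passed in 0 (adjusted p up to 0.215). In this list 8 of 23 genes with a promoter held the core (34.8%), and they had a median change of -0.04, beside 0.03 for those without it. Among the 10 genes the order was the opposite, with a median change of 0.07 for the 4 with the core and -0.05 for the 4 without it, and neither difference was tested. In the list of superoxide and peroxide enzymes, 0 of 17 promoters held it.

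**Figure D4:**
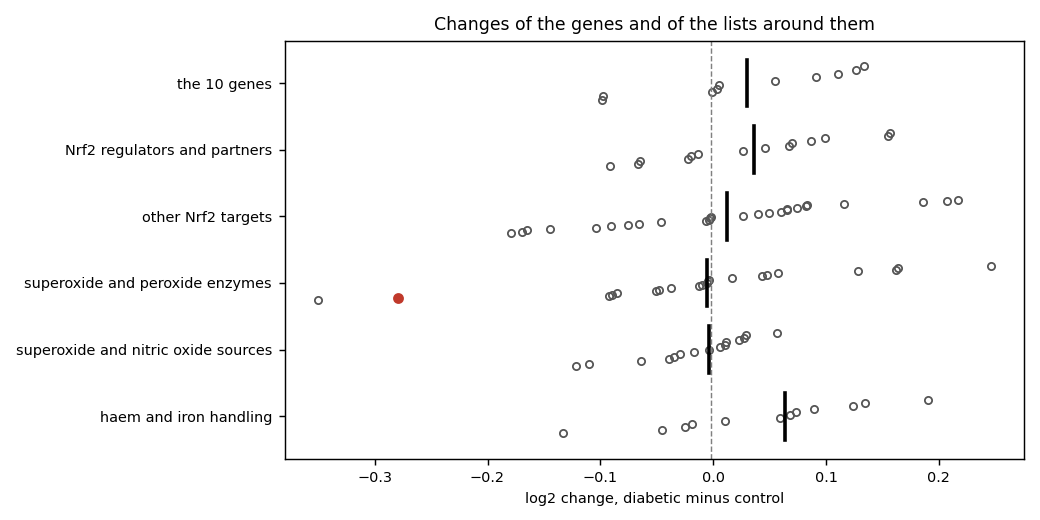
Log2 change, diabetic minus control (horizontal axis), of the 10 genes and of the 5 lists around them, 1 point per gene, with black bars at the median of each list and a dashed line at the median of all genes. The filled red point is Glrx2, the gene past the test, and Prdx2 lies to its left.

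Sources of superoxide and nitric oxide (15 genes, 7 above and 8 below 0, median -0.0039) were dim, with 12 control means below the array median. Of these 15, 0 passed and 5 reached an unadjusted p under 0.05 (33.3%, beside 21.0% of all genes). Nos3, the nitric oxide synthase of endothelium, had 5.78, 5.85 and 5.89 in diabetic retinas, against 5.90, 5.93 and 6.16 in controls. The groups did not overlap, control 2 was far above the other controls, and the change was -0.12 ± 0.04 (adjusted p = 0.107). The endothelial marker list had means of 6.88 in diabetic and 6.86 in control retinas, but its markers did not move together. Kdr, by far the brightest (10.68 and 10.43), had a change of 0.26. The changes were -0.09 for Cldn5, -0.08 for Cdh5, 0.0013 for Pecam1 and 0.0085 for Tek, and 0 of these markers passed the test. The part of the endothelium in the value of Nos3 was not tested. Xdh, xanthine dehydrogenase, had 5.26, 5.32 and 5.35 in diabetic retinas, against 5.22, 5.26 and 5.28 in controls, and a change of 0.06 ± 0.02 (adjusted p = 0.0997). It passed in 0 of the 12 runs with 1 array left out and in 1 of 11 other fits, with a robust variance trend (adjusted p = 0.0497). The log2 values of Xdh lie near the bottom of the table at 5.07.

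Among 12 genes of haem and iron handling, 8 had changes above 0 and 4 below (median 0.06), with 0 past the test and 3 at an unadjusted p under 0.05 (25%, beside 21.0% of all genes). Fech, which inserts iron to form haem, had 6.91, 7.09 and 7.22 in diabetic retinas, against 6.77, 6.89 and 7.03 in controls. Its change was 0.19 ± 0.06 (adjusted p = 0.101), and 5 of 6 diabetic retinas lay above every control. Fech passed in 0 of the 12 runs with 1 array left out and in 1 of 13 other fits (adjusted p up to 0.215). That 1 fit had the red blood cell markers as a covariate (adjusted p = 0.0498), and the 4 markers measured were below the array median. Hmox2, the constitutive haem oxygenase, had 8.21, 8.39 and 8.47 in diabetic retinas, against 8.33, 8.57 and 8.59 in controls, and a change of -0.13 ± 0.05 (adjusted p = 0.186). The value for Hmox2 thus lay below 0 and that for the inducible Hmox1 above it, and neither passed.

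**Figure D5:**
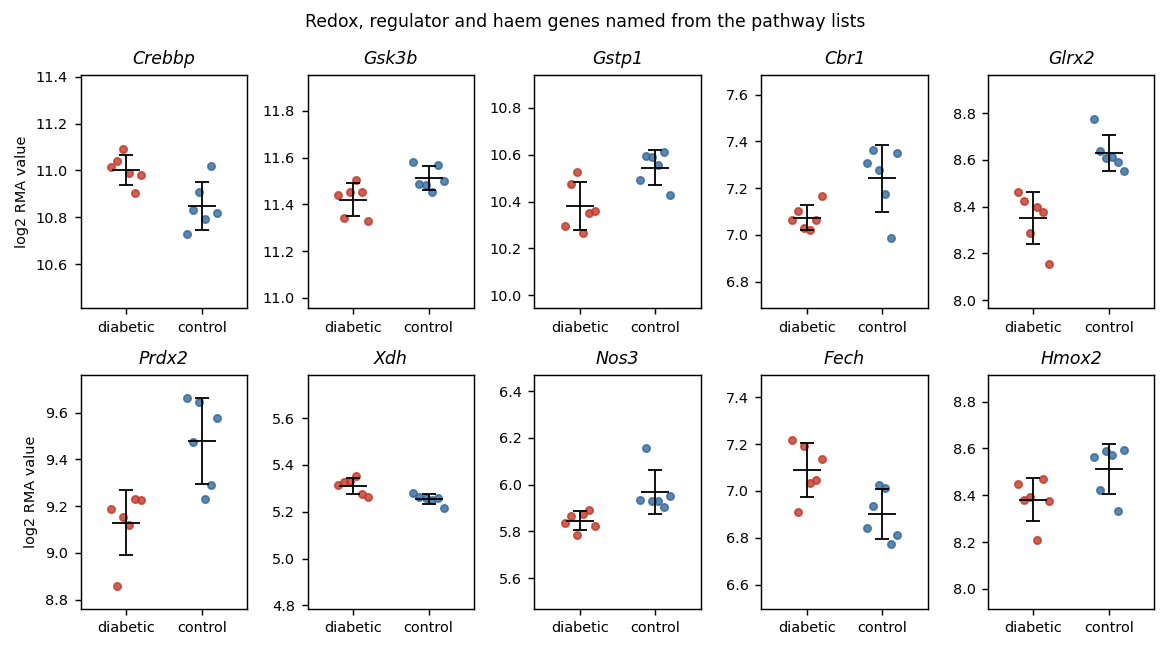
Log2 RMA value (vertical axis, each panel spanning 1 log2 unit) of the 10 genes named from the lists in 6 diabetic retinas (red, left) and 6 control retinas (blue, right), with mean and SD in black. The groups do not overlap for Glrx2, Prdx2 and Nos3, of which Glrx2 passed the test.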

How the data were processed

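Per the submitters' processing notes, the deposited table holds log2 values made with RMA by the authors, 1 line per Entrez gene number. The RMA version and the probe sets are not given in the sources used here. The sorted values of all 12 arrays were identical (range 5.07 to 14.10), so the table cannot show a shift common to most genes, and levels of different genes are not compared. Of 24973 lines, 24015 were named by the platform annotation and 559 more by RefSeq (GRCm38.p6). For 4 symbols on several lines the brightest was kept, which left 24570 genes.

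Changes were tested with limma 3.58.1 in R 4.3.3 (lmFit, eBayes, diabetic minus control, two-sided, no filter on dim genes), with Benjamini-Hochberg adjustment over all genes. The p-values of single genes come from this fit, errors of changes are its SEs, and intervals are at 95%. Correlations and marker means used permutation tests. The number of arrays limits the precision. Genes described with their values were the 10 genes and, from the lists, every gene past the test and the 2 of smallest p per list, 20 in all, and the most similar gene to each of the 10 was named. The 10 genes and the lists were chosen with earlier results of these data known. The p-values measure the spread between animals. The animals' label numbers do not overlap between the groups. If these mark cohorts, diabetes and cohort cannot be told apart. Alternatives covered dim-gene filters, cyclic loess, variance models, weighted arrays, marker covariates, a block for the replicate number and each array left out.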

Additional observations from a re-analysis of the deposited data

Results flagged for a closer look

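Across the 20 genes described with their values and 8 marker list means, 56 groups of 6 arrays were checked for a lone array by Dixon's ratio, the distance to its nearest neighbour over the spread of the group. Of these groups, 5 had one (8.93%), where chance gives about 1 in 20. In diabetic retinas these were Nfe2l2 (ratio 0.734, diabetic 1 at 7.91, the others at most 7.58), Prdx2 (0.709, diabetic 2 at 8.86, the others at least 9.12) and Hmox2 (0.642, diabetic 4 at 8.21, the others at least 8.38). In controls they were Nos3 (0.817, control 2 at 6.16, the others at most 5.95) and Sod1 (0.716, control 5 at 6.22, the others at least 6.57).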

How the results depend on the processing

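None of the 10 genes passed in any limma run at 0.05, nor in the reported fit at adjusted p under 0.1. The lowest adjusted p with 1 array left out was 0.0730, for Nqo1. In an exact permutation test without adjustment, Nqo1 had p = 0.0411 and Gclc p = 0.0541. Of the 10 genes, 7 kept their sign in every run, all but Txnrd1, Sod1 and Sod2. Txnrd1 was 0.0064 with cyclic loess and from -0.0170 to 0.0188 with 1 array left out. Sod1 was -0.0071 with array weights, -0.018 with lens markers as a covariate, and from -0.0668 to 0.0376 with 1 array left out. Sod2 was -0.0043 with cyclic loess, -0.0086 with array weights, -0.0061 with lens markers as a covariate, -0.015 without control 2 and diabetic 6, and from -0.0133 to 0.0182 with 1 array left out.

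The count of 797 genes over the whole table was 506 with the replicate number as a block, 421 with red blood cell, 465 with lens and 1194 with pigment epithelium markers as a covariate, 371 without moderated variance, 236 without control 2 and diabetic 6 (chosen after seeing the data as the arrays of lowest weight), 1967 at adjusted p under 0.1, and from 325 (without diabetic 4) to 835 with 1 array left out. Of the 88 list genes, 2 passed with either filter on dim genes, with a variance trend, with array weights and with red blood cell or pigment epithelium markers as a covariate, 3 with a robust trend, 5 at adjusted p under 0.1, and from 1 to 5 with 1 array left out, the 5 without control 5. The number of the 10 genes whose groups did not overlap was 0, and from 0 to 1 with 1 array left out, the 1 being Nqo1 without diabetic 2. Over the whole table, same-numbered animals of the groups had r from -0.16 to 0.17 between their deviations. These correlations cannot show whether single genes varied with the replicate number, and what that number stands for was not tested. With it as a block, the SE of Gclm was 0.036, against 0.072 without it (limma adjusted p = 0.111 and 0.315). With the replicate number as a block, 0 of the 10 genes passed, and Glrx2 did. The cause of these differences was not tested. A missing call for Hmox1 and Nqo1, at a level below the array median, does not show that they stayed level.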
